A study of Mus musculus with 4 samples.

Results

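The transcripts of 44 cell cycle genes were followed across the cell types of 4 mouse mammary tumours. The genes were listed by name, and the list was drawn up with earlier results of these data known. There were 27 genes of mitosis and its approach, from the proliferation marker Mki67 to the microtubule regulator Stmn1. A further 17 genes act in S phase or at its start, from the replicative helicase subunits Mcm2 to Mcm7 to the cyclins Ccne1 and Ccne2. All 44 were found by symbol among 31053 mouse features. Tumours grew from 2000000 HER2+ H605 mouse mammary tumour cells placed in the mammary pad of FVB/NJ hosts aged 6 to 8 weeks, and were taken at day 14. In 2 tumours the host was wild type (WT), and in 2 the host lacked Il1a (Il1a-/-), the gene of the cytokine interleukin-1 alpha. The knockout was in the host, whereas the injected cells were of the same H605 line in both groups. Each tumour gave 1 single-cell sample. The tumours were taken as 2 pairs on different days, and the labels do not say which tumours shared a day. The labels do not say how the hosts were related, so p-values measure only the spread between these 4 samples.

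A dividing cell copies its DNA in S phase and parts the copies in mitosis. E2F transcription factors switch on genes for nucleotides, helicase subunits and replication clamps at the start of S phase. Genes of the mitotic spindle, the kinetochore and the mitotic cyclins follow later, through promoter elements called CHR (cell cycle genes homology region) and CCAAT boxes. In quiescent cells, a repressor complex holds these same promoters shut. Lymphocytes that meet their antigen or a cytokine divide many times, whereas plasmacytoid dendritic cells and neutrophils leave the bone marrow as cells that no longer divide.

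The promoters of 6 members, 3 mitotic and 3 of S phase, are shown as examples of where these elements can be looked for. They are the 250 bases before the RefSeq start (GRCm38.p6), 5′ to 3′ on the gene's strand. None of these windows overlaps the gene's own annotated span in GENCODE vM21. Capitals mark every match, on either strand and with overlaps allowed, to the CHR letters TTTGAA or TTTAAA, to CCAAT, or to the E2F letters TTTCCCGC, TTTGGCGC, TTTCGCGC or TTTGCCGC.
Mki67: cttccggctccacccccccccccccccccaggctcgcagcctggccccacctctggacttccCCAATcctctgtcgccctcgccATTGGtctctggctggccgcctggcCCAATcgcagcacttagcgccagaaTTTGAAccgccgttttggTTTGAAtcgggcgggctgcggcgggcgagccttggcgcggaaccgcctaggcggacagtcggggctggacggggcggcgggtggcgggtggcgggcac
Top2a: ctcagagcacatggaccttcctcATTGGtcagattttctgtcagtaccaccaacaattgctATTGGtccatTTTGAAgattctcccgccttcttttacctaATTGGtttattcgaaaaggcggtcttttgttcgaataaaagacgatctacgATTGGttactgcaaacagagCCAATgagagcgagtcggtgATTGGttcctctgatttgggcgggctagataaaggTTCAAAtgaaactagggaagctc
Cenpf: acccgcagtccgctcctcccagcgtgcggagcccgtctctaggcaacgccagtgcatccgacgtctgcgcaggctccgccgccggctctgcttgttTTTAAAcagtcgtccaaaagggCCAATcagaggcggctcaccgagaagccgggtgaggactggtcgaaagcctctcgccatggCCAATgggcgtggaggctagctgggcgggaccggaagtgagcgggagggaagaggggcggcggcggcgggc
Mcm5: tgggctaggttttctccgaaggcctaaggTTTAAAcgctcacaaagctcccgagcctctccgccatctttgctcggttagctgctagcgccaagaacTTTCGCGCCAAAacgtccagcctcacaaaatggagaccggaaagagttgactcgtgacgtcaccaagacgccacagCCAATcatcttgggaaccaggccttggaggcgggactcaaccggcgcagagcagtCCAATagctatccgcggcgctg
Mcm6: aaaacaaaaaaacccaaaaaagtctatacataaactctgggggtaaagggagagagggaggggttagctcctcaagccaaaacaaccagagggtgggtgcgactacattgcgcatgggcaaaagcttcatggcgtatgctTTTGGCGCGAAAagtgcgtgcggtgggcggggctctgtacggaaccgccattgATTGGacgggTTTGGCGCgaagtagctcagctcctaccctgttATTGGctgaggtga
Tyms: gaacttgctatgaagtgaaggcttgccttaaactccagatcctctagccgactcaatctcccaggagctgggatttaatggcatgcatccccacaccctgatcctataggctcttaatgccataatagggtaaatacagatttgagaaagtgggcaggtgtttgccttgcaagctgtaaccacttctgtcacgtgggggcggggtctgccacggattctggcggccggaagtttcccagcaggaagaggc
These windows are chr7:135716380-135716629 (-) for Mki67, chr11:99024190-99024439 (-) for Top2a and chr1:189688087-189688336 (-) for Cenpf among the mitotic genes. Among the S-phase genes they are chr8:75109259-75109508 (+) for Mcm5, chr1:128359706-128359955 (-) for Mcm6 and chr5:30073626-30073875 (-) for Tyms. Mki67, the proliferation antigen, held TTTGAA at 116 and 98 bases before the start. Top2a, the topoisomerase that untangles chromosomes, held it at 179 and, on the opposite strand, 23 bases before the start, with 6 CCAAT matches. Mcm6, a helicase subunit, held 3 E2F matches, at 110, 106 and 47 bases before the start, and Mcm5 held 2. Tyms, the thymidylate synthase, held none of these letters, which says only that they are not in this window.

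A RefSeq promoter of 300 bases, 50 of them after the start, was matched for 37 members. Ccna2, Tpx2, Aurkb, Stmn1, Mcm4, Gins2 and Ccne2 were not matched. The CHR letters stood in 21 of 23 mitotic promoters (91.3%) and in 5 of 14 S-phase promoters (35.7%). They stood in 27.8% of all 27025 promoters. The E2F letters had the opposite pattern, with 2 of 23 mitotic promoters (8.70%), 7 of 14 S-phase promoters (50%) and 2.32% of all. CCAAT stood in 78.3%, 64.3% and 37.9%, in that order. A match describes letters and is not a measured binding site.

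Counts are UMIs, or unique molecular identifiers, the tags that keep copies of one captured transcript from being counted again. Levels are CPM, the UMIs of a gene per 1000000 UMIs of a class in a sample, a scale on which no gene length enters because only transcript ends were read. The libraries held 6704859 to 28999819 mouse UMIs and 3130 to 3878 called cells. Il1a-/- replicate 1 was the shallowest, with a median of 1348 UMIs per cell against 2883.5 to 4160 elsewhere. Il1a itself had 65 and 109 UMIs in the called cells of the WT tumours and 1 and 0 in the Il1a-/- tumours. Classes are named "-like" because they rest on marker genes alone, and no cell cycle gene was a marker. There were 8279 T/NK-like, 1407 mononuclear phagocyte-like, 1032 fibroblast-like, 620 tumour epithelial-like, 318 plasmacytoid dendritic-like and 184 conventional dendritic-like cells. A further 2027 cells (14.3%) passed no gate. All 13 T/NK markers were detected in T/NK-like cells and 9 of 10 epithelial markers in tumour epithelial-like cells. Near the gate's limits stood 116 of the 184 conventional and 198 of the 318 plasmacytoid dendritic-like cells. The 67 endothelial-like cells also held 9 of 13 phagocyte markers and were not used. Free RNA, read from near-empty barcodes, carried 424 to 641 mitotic CPM, so a low level in a class can hold free RNA. Libraries shared 0 to 5 cell barcodes.

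Classes with at least 20 cells in 3 or more tumours were ranked. Among them, T/NK-like and tumour epithelial-like cells held the highest levels of most members, and plasmacytoid dendritic-like and fibroblast-like cells the lowest. Below, paired values are replicates 1 and 2. Neutrophil-like cells, 39 and 43 in WT and 5 and 9 in Il1a-/- tumours, were too few to rank. They had 2 and 3 mitotic UMIs in WT and 0 and 1 in Il1a-/- tumours. The 27 mitotic genes summed to 1030 and 1404 CPM in WT T/NK-like cells, and 1157 and 1948 in Il1a-/- ones. In tumour epithelial-like cells they summed to 1074 and 882 in WT tumours and 1871 in Il1a-/- replicate 1. In Il1a-/- replicate 2 only 4 tumour epithelial-like cells were found, so that sample entered no tumour comparison. The mitotic sums of mononuclear phagocyte-like cells were 473 and 378 in WT and 120 and 508 in Il1a-/- tumours. Those of fibroblast-like cells were 81.9 and 241, and 64.4 and 85.9. Plasmacytoid dendritic-like cells had 53.8 and 62.9, and 117 and 109. Every mononuclear phagocyte-like, fibroblast-like and plasmacytoid dendritic-like sum was below the free RNA level of its library. Every T/NK-like sum was above that level.

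The S-phase genes were also highest in T/NK-like cells. Their sums were 775 and 900 CPM in WT T/NK-like cells and 910 and 1340 in Il1a-/- ones. Tumour epithelial-like cells had 627 and 498 in WT tumours and 569 in Il1a-/- replicate 1, below the T/NK-like sum of each sample. The ratio of S-phase to mitotic UMIs was thus 0.584 and 0.565 in WT tumour epithelial-like cells and 0.753 and 0.641 in WT T/NK-like cells. By mean level over samples, 14 of 27 mitotic members were highest in T/NK-like cells and 13 in tumour epithelial-like cells. For the S-phase members these counts were 14 and 2 of 17, and E2f1, an E2F factor, was highest in plasmacytoid dendritic-like cells. In those cells 21 mitotic and 11 S-phase members had their lowest level.

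**Figure D1:**
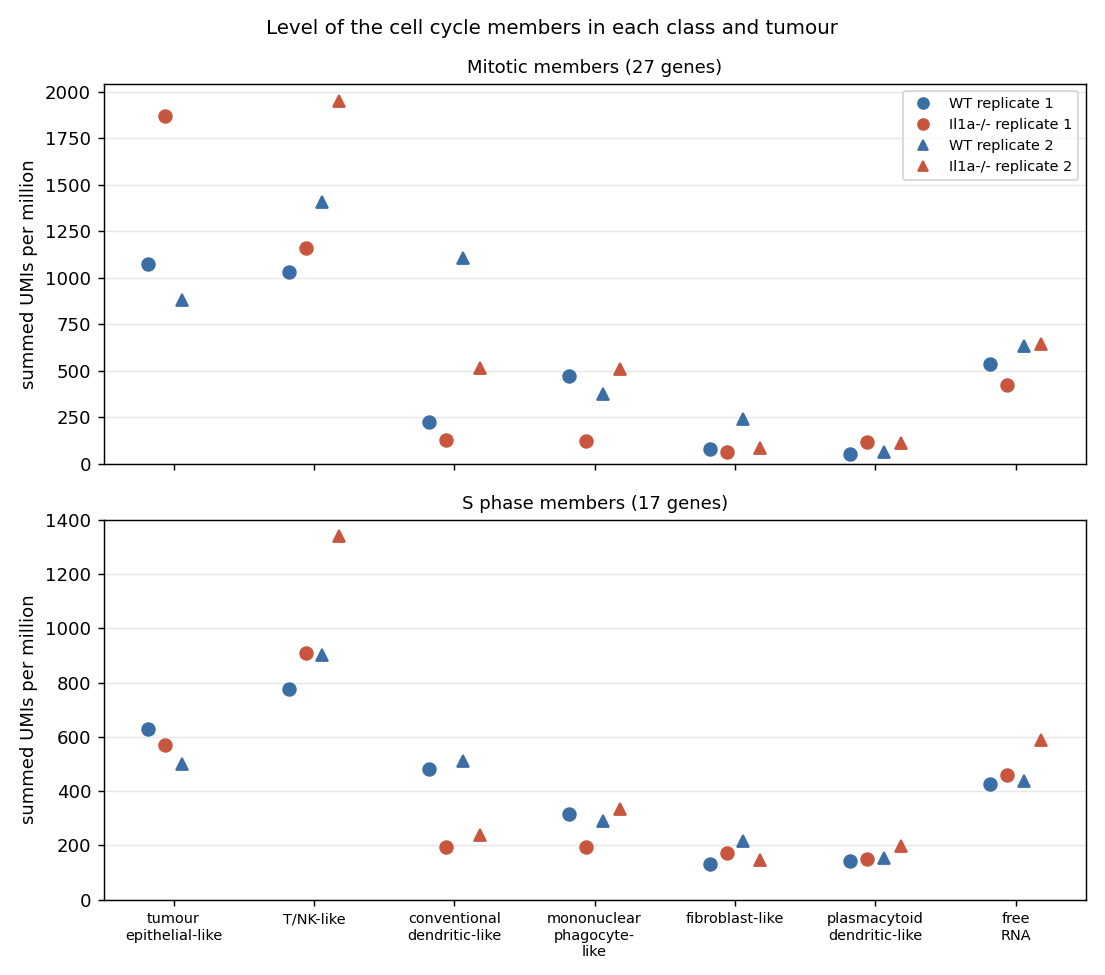
Summed level of the mitotic and of the S-phase genes (CPM, linear axes) by cell class and in free RNA, with 1 point per tumour, the host genotype in colour and the replicate as shape. T/NK-like and tumour epithelial-like cells lie highest for the mitotic genes, except that conventional dendritic-like cells of WT replicate 2 reach 1107. Plasmacytoid dendritic-like cells lie between 53.8 and 117, overlapping fibroblast-like cells.

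The mitotic signal sat in few cells. The 5% of T/NK-like cells with most mitotic UMIs held 85.1% and 80.4% of them in WT tumours and 76.8% and 69.2% in Il1a-/- tumours. The top cells were deep: in WT replicate 1 their median was 8801.5 UMIs, against 2939 in the class. In smaller classes a single cell weighed heavily. It held 14.2% to 24.0% of the mitotic UMIs of mononuclear phagocyte-like cells, and 27.8% to 55.3% of those of fibroblast-like cells.

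Mononuclear phagocyte-like cells had less of nearly all members than T/NK-like cells of the same tumour. By edgeR's quasi-likelihood test with sample as a block and Benjamini-Hochberg adjustment over all genes, 40 of 44 members were lower and 0 higher at an adjusted p under 0.05. Over all genes, 30.5% were lower and 29.9% higher. The members' median log2 fold change was -1.53, against -0.05 for all genes. Mki67 had 92.3 and 181 CPM in WT and 119 and 196 in Il1a-/- T/NK-like cells. Its level was 45.6 and 39.9, and 7.28 and 30.5, in mononuclear phagocyte-like cells, so the classes did not overlap. The log2 fold change of Mki67 was -1.90 ± 0.28 (SE, 4 samples, adjusted p = 0.000216). The smallest adjusted p-values among members were those of the helicase subunits Mcm6 (-2.58), Mcm7 (-1.92) and Mcm4 (-1.66), of the chromatin remodeller Hells (-2.94), of the ribonucleotide reductase subunit Rrm1 (-1.32) and of the spindle protein Nusap1 (-2.06). Stmn1 was lower by a log2 fold change of -2.23 and Top2a by -1.92. Pcna, the sliding clamp of DNA polymerase, had -0.55. Aurka, Aurkb, Ncapg2 and E2f1 did not pass the test. Among the other pathway genes, 25 of 28 further replication genes and 37 of 41 further mitotic genes were lower. Of 8 G1 cyclins and kinases 5 were lower and 1 higher. The D-type cyclins parted: Ccnd2 had a log2 fold change of -4.12 and Ccnd1 of 3.64. Of 12 inhibitors and quiescence genes 8 were lower, among them Rbl2 (-2.75) and Cdkn1b (-0.91), and Cdkn1a was higher, at 2.39.

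Fibroblast-like cells differed further still. By the same edgeR test 43 of 44 members were lower than in T/NK-like cells, and E2f1 alone of the 44 did not pass. Over all genes, 34.9% were lower. The median of the members was -2.73, against -0.07 for all genes. Mcm5 had 2.38 and 3.78 CPM in WT and 1.19 and 2.13 in Il1a-/- fibroblast-like cells, against 48.3 to 62.8 in T/NK-like cells. That is a log2 fold change of -4.21 ± 0.24 (adjusted p = 1.48e-07). Mki67 was lower by -3.62, Top2a by -3.91, Stmn1 by -3.82, Mcm6 by -3.33 and Rrm2, the other ribonucleotide reductase subunit, by -3.01. The highest mitotic sum of this class, 241 in WT replicate 2, held 1 cell with 28.6% of the UMIs.

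Plasmacytoid dendritic-like cells stood at or near 0 for most mitotic genes. Over all 4 tumours they had 0 UMIs of Cdk1, Ccnb1, Ccnb2, Ccna2, Tpx2, Bub1, Plk1, Nusap1, Hmmr and Cdc20, and of the S-phase cyclins Ccne1 and Ccne2. Mki67 had 1 UMI, Top2a 3, Stmn1 5 and Mcm5 9. Pcna, with 87 UMIs, Cenpa, the centromeric histone, with 43, and E2f1, with 27, were detected more often. With edgeR, 41 of 44 members were lower than in T/NK-like cells, where 26.3% of all genes were. The median log2 fold change with the 12 members at 0 set to a floor of 3 UMIs over the group was -3.58, while the fitted median, which depends on the prior count, was -4.88. Knl1, E2f1 and Ncapg2 did not pass. No plasmacytoid dendritic-like cell was mitotic by the thinned count described below. With 115 and 70 cells deep enough in WT tumours, 0 cells allow shares of up to 2.61% and 4.29%. With 69 and 59 in Il1a-/- tumours, they allow up to 4.35% and 5.08%. Without thinning, 4 of 118 and 4 of 71 cells in WT and 1 of 69 and 6 of 60 in Il1a-/- tumours were counted.

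Tumour epithelial-like cells were set against T/NK-like cells in the 3 tumours that held at least 20 of them. The S-phase genes that differed were all lower in tumour epithelial-like cells. Mitotic genes differed in both directions, and no more often than genes at large. Of the 27 mitotic members, 3 were higher and 5 lower in edgeR's test, and of the 17 S-phase members 0 were higher and 9 lower. Over all genes, 27.7% were higher and 28.8% lower. Cdk1, the kinase that drives entry into mitosis, had 60.2, 48.8 and 97.8 CPM in tumour epithelial-like cells of WT replicates 1 and 2 and Il1a-/- replicate 1. It had 25.7, 32.7 and 21.9 in T/NK-like cells, so every tumour showed the same order. Its log2 fold change was 1.06 ± 0.27 (adjusted p = 0.00918). Hmmr, a spindle-associated receptor for hyaluronan, had 0.91 (adjusted p = 0.0215), and Cenpf, a kinetochore protein, 0.94 (adjusted p = 0.0223). Of the 6 helicase subunits 5 were lower: Mcm2 at -1.53, Mcm5 at -1.32, Mcm4 at -1.20, Mcm3 at -1.10 and Mcm6 at -1.07. The other, Mcm7, did not pass (0.09, adjusted p = 0.705). Mcm2 had 16.7, 15.8 and 12.2 CPM against 42.1, 48.6 and 31.8 in T/NK-like cells. Pcna was lower by -1.01, Stmn1 by -0.96, Rrm2 by -1.24 and Ccne1, the cyclin of S-phase entry, by -1.15. Mki67 (-0.70, adjusted p = 0.0741) and Top2a (-0.64, adjusted p = 0.101) did not pass. Among the other lists, 2 of 8 G1 genes were higher and 3 lower, with Ccnd1 at 7.87 and Ccnd2 at -6.33. Of 13 inhibitors and quiescence genes 3 were higher and 8 lower, with Cdkn2b at 2.41, Btg1 at -2.83 and Rbl2 at -3.34. Of Il1a-/- replicate 1 only 27 tumour epithelial-like cells entered, and 1 cell held 35.0% of their mitotic UMIs.

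Against mononuclear phagocyte-like cells, the same tumour epithelial-like cells had more of 25 of 42 members and less of 0, where 26.6% of all genes were higher. These were 18 mitotic and 7 S-phase genes, and the median of the members was 1.26. Hells had 54.4, 43.8 and 48.9 CPM in tumour epithelial-like cells and 5.37, 8.60 and 3.64 in mononuclear phagocyte-like cells, a log2 fold change of 2.61 ± 0.30 (adjusted p = 0.000121 in edgeR). Cdk1 (2.03), Tyms (1.94), the mitotic cyclin Ccnb2 (2.13), Cenpf (2.59) and Hmmr (2.37) followed. Mki67 was higher by 0.93 (adjusted p = 0.0416). With DESeq2 16 members were called.

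Conventional dendritic-like cells could be set against mononuclear phagocyte-like cells for only 12 members. Mcm6 was higher (log2 fold change 1.49, adjusted p = 0.00309 in edgeR), and the other 11 did not pass, where 13.4% of all genes were higher. Without WT replicate 2 no member passed. The mitotic sums ranged from 129 to 1107 CPM, and in WT replicate 2 a single cell held 46.9% of them.

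Within the T/NK-like cells, 5 sets were separated by lineage genes. There were 124 and 246 CD8 T-like cells in the WT tumours, and 814 and 775 in the Il1a-/- tumours. Of NK-like cells 679 and 655, and 347 and 314, were found. Conventional CD4 T-like cells (263 and 292, 107 and 257), regulatory T-like cells (154 and 181, 21 and 57) and gamma-delta T-like cells (309 and 380, 97 and 190) were also counted. The remaining 2017 T/NK-like cells (24.4%) fitted no single set, and cells with Cd8 genes beside Cd4 or Foxp3 were placed among them. They held 9.45% and 16.6% of the mitotic UMIs of the T/NK-like class in WT and 12.1% and 10.1% in Il1a-/- tumours.

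Regulatory T-like cells, marked by Foxp3, held more cell cycle transcripts than conventional CD4 T-like cells of the same tumour. Their mitotic sums were 1627 and 2864 CPM in WT and 1504 and 2935 in Il1a-/- tumours, against 1133 and 1065, and 483 and 554. The groups did not overlap. Of 34 members tested with edgeR, 25 were higher (20 mitotic, 5 S phase) and 0 were lower, where 6.8% of all genes were higher. The median was 1.11. Mki67 had 188 and 326 CPM in WT and 242 and 338 in Il1a-/- regulatory T-like cells, and 76.6 and 143, and 63.0 and 47.5, in conventional CD4 T-like cells. Its log2 fold change was 1.46 ± 0.17 (adjusted p = 5.12e-10). Top2a (1.35), Stmn1 (1.16), Cenpa (1.04), Pclaf, a partner of the replication clamp (1.16), and Cdk1 were higher too. Ccnb1, Knl1, Mcm2, Mcm3, Mcm7, Pcna, Tyms, Rrm1 and Hells did not pass. In Il1a-/- replicate 1 only 21 regulatory T-like cells were found, 1 of which held 64.3% of the mitotic UMIs. Without WT replicate 2, 6 members were called, and with DESeq2 12.

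CD8 T-like cells also held more than conventional CD4 T-like cells. With edgeR, 18 of 42 members were higher and 0 lower (11 mitotic, 7 S phase), where 3.34% of all genes were higher, with a median of 1.14. Pclaf had 192 and 161 CPM in WT and 245 and 493 in Il1a-/- CD8 T-like cells, and 35.6 and 101, and 70.1 and 48.9, in conventional CD4 T-like cells. Its log2 fold change was 2.06 ± 0.34 (adjusted p = 0.00145). Stmn1 was higher by 1.67, Ncapg2, a condensin subunit, by 1.74, Mcm5 by 1.40, Mki67 by 1.42 and Top2a by 1.13. Leaving out WT replicate 2 raised the count to 29. Leaving out Il1a-/- replicate 1 or 2 lowered it to 8 or 7.

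NK-like cells, marked by Ncr1 or Klrb1c without CD3 genes, held less than CD8 T-like cells. By edgeR's test 21 of 43 members were lower and 0 higher (12 mitotic, 9 S phase), where 6.95% of all genes were lower, with a median of -1.19. Cenpa (-1.05, adjusted p = 0.0015), Mcm4 (-0.96), the mitotic kinase Aurkb (-1.84), the licensing factor Cdc6 (-1.86), Ncapg2 (-1.46) and the anaphase activator Cdc20 (-1.14) had the smallest p-values. Mki67 was lower by -1.64 and Top2a by -1.40. Each genotype contributed unequally: the mitotic sum of WT replicate 1 was 1116 CPM in NK-like and 1568 in CD8 T-like cells, and that of Il1a-/- replicate 2 was 478 and 2945. When either Il1a-/- tumour was left out, 8 members were called.

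In whole T/NK-like cells 3 members differed between host genotypes. The mix of subsets in this class also differed between genotypes, as given below. Of all 44 tested, 3 were higher in Il1a-/- tumours and 0 lower, where 3.03% of all genes were higher. Ccne2, a cyclin of S-phase entry, had 8.09 and 7.97 CPM in WT and 24.1 and 22.5 in Il1a-/- tumours. The genotypes did not overlap, and the log2 fold change was 1.56 ± 0.19 (edgeR, adjusted p = 0.011). Cenpa had 90.2 and 95.5, and 163 and 144 (0.75 ± 0.15, adjusted p = 0.0391). Mcm6 had 63.9 and 75.4, and 112 and 120 (0.77 ± 0.16, adjusted p = 0.0416). Without WT replicate 1 or WT replicate 2 none was called, and without Il1a-/- replicate 1, 11 were. Mki67 overlapped between genotypes, at 92.3 and 181 in WT and 119 and 196 in Il1a-/- tumours (log2 fold change 0.24 ± 0.35, adjusted p = 0.702). Stmn1 had 145 and 167, and 188 and 300.5 (0.69 ± 0.25, adjusted p = 0.139).

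Other genes of the pathway that passed in T/NK-like cells were few. Of 8 G1 genes, Myc, which drives entry into the cycle, was lower (-1.74, adjusted p = 0.0141 in edgeR). Of 14 inhibitors and quiescence genes, Cdkn1a (1.32) and Ccng2 (1.01) were higher. Of 15 cycle transcription factors, Lin54, a subunit of the complex that binds CHR elements (0.94), and E2f3 (0.77) were higher, and of 28 replication genes Dbf4 (0.96) and Rpa2 (0.85). None of 44 further mitotic genes passed, though 6 had an unadjusted p under 0.05.

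Pcna needs a reservation. Its processed copy Pcna-ps2 (chr19:9283380-9284160) had 0.418 and 0.634 CPM in WT T/NK-like cells and 22.5 and 34.5 in Il1a-/- ones. Reads of Pcna and its copy can be split by the counting, so Pcna, at 123 and 125, and 149.5 and 178, is uncertain. All hosts are labelled FVB/NJ. Whether the copy or other loci differ in genetic background between the hosts was not tested, and it cannot be told apart from the Il1a knockout in any host comparison here. No member shares exons with a gene on its own strand in GENCODE vM21. Ube2c, Ccna2, Prc1, Nusap1, Cdca8, Cdc20, Mcm7, Gins2 and Ccne2 share exon bases with a gene on the opposite strand, and no source used here states how strand was counted.

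The cells that carried the cell cycle transcripts of the T/NK-like class differed between genotypes. CD8 T-like cells held 10.7% and 12.6% of its mitotic UMIs in WT tumours and 79.1% and 78.3% in Il1a-/- tumours. Their share of its cells was 6.21% and 11.3% in WT and 40.7% and 36.7% in Il1a-/- tumours, and their share of all its UMIs was 7.05% and 12.1%, and 51.4% and 51.8%. NK-like cells held 38.8% and 23.4% of mitotic UMIs in WT and 4.78% and 2.46% in Il1a-/- tumours, with 34.0% and 30.1%, and 17.4% and 14.9%, of the cells. The S-phase UMIs parted likewise, with CD8 T-like cells at 11.3% and 13.6%, and 69.2% and 74.0%. Regulatory T-like cells held 12.4% and 18.5% of mitotic UMIs in WT and 1.56% and 2.77% in Il1a-/- tumours, with 7.71% and 8.33%, and 1.05% and 2.70%, of the cells. Their own mitotic levels, given above, overlapped between genotypes. These shares were not tested. An exact permutation test of 2 samples against 2 cannot go below p = 0.33.

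**Figure D2:**
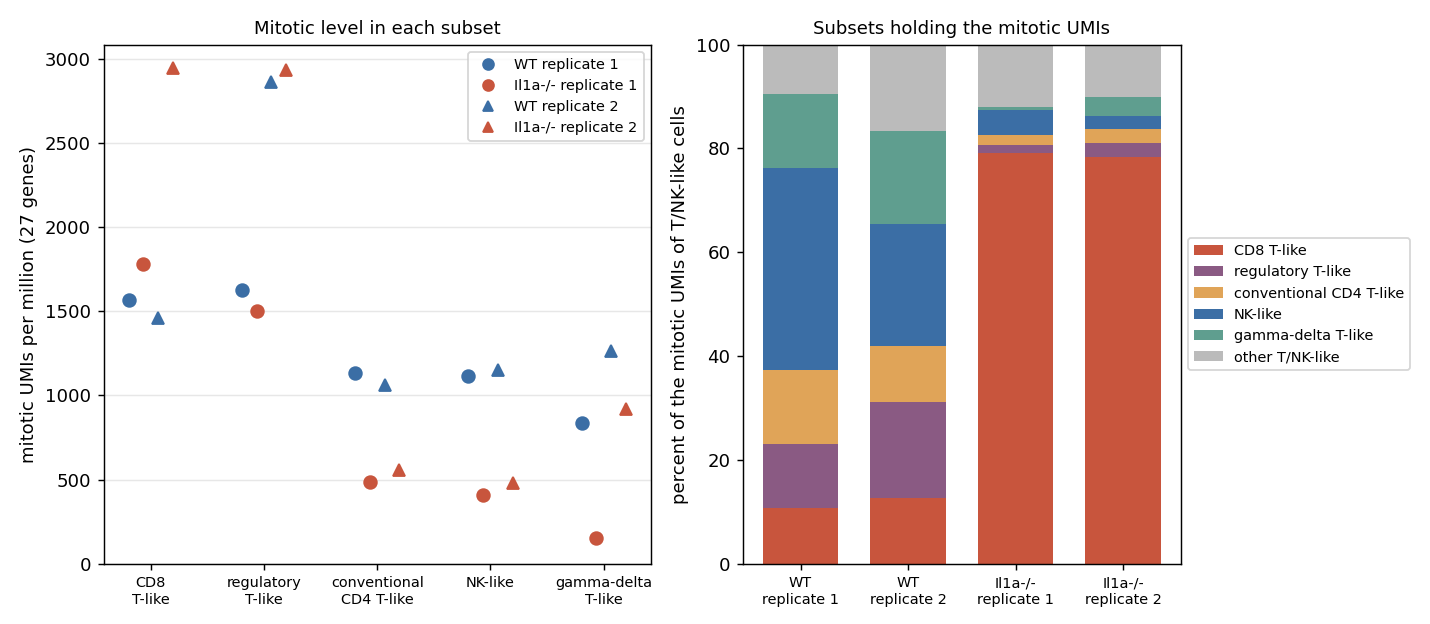
Level of the mitotic genes in each T/NK-like subset, and each subset's part of the T/NK-like mitotic UMIs, by tumour, with host genotype in colour. CD8 T-like cells hold 10.7% and 12.6% of mitotic UMIs in the WT tumours and 79.1% and 78.3% in the Il1a-/- tumours.

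Within CD8 T-like cells 1 of 44 members passed, where 0.963% of all genes were higher. Ccne2 had 9.89 and 8.96 CPM in WT and 36.2 and 31.1 in Il1a-/- tumours, with no overlap (log2 fold change 1.79 ± 0.36, edgeR adjusted p = 0.0367). No member was called with DESeq2 or when either WT tumour was left out, and 7 were when Il1a-/- replicate 1 was. The median over the members was 0.47. Most other members were highest in Il1a-/- replicate 2. Mki67 had 160.2 and 205 in WT and 184 and 304 in Il1a-/- tumours (0.36 ± 0.29, adjusted p = 0.608). Top2a had 170.1 and 191, and 234 and 365 (0.68 ± 0.27, adjusted p = 0.27). Stmn1 had 218 and 178, and 291 and 449 (0.86 ± 0.28, adjusted p = 0.168). Outside the members, Cdkn1a (2.46, adjusted p = 0.0128) and Lin54 (1.503) were higher and Myc lower (-1.85, adjusted p = 0.0361).

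NK-like cells of Il1a-/- tumours held fewer cell cycle transcripts of both phases. The mitotic sums were 1116 and 1150 CPM in WT and 409 and 478 in Il1a-/- tumours, and the S-phase sums 841 and 796, and 468 and 491. With edgeR, 31 of 43 members were lower (21 of 26 mitotic and 10 of 17 S phase) and 0 higher. Over all genes 7.75% were lower and 8.51% higher. The median of the members was -1.55, against -0.01 for all genes. Of the 43, 39 were lower in both Il1a-/- tumours than in both WT tumours, and 1 was higher in both. Groups that do not overlap were found for 58% of all genes.

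Ube2c, the ubiquitin ligase partner that helps destroy mitotic cyclins, had 69.8 and 75.0 CPM in WT and 11.9 and 5.07 in Il1a-/- NK-like cells. It fell by 3.29 ± 0.36 on the log2 scale (adjusted p = 7.53e-09 in edgeR). Its gene lies at chr2:164769898-164778822 (+). Pclaf (chr9:65890237-65903266, +) had 118 and 104, and 26.1 and 29.2 (-2.00 ± 0.24, adjusted p = 1.08e-07). Mki67 (chr7:135689784-135716361, -) had 95.9 and 138, and 35.6 and 30.4 (-1.885 ± 0.25, adjusted p = 7.37e-07). Top2a (chr11:98992943-99024189, -) had 150.1 and 137, and 57.0 and 41.8 (-1.62 ± 0.22, adjusted p = 7.86e-07). Every Il1a-/- value of these 4 genes lay below every WT value. Cenpf had 44.05 and 55.1, and 2.38 and 13.9, and Nusap1, a microtubule-bundling protein, had 39.0 and 47.5, and 9.503 and 11.4. Their log2 fold changes were -2.36 (adjusted p = 1.58e-05) and -2.04 (adjusted p = 6.58e-05). These 6 genes also passed under each alternative setting and with each tumour left out.

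Further core members fell less or less firmly in NK-like cells. By edgeR, the log2 fold change was -1.20 for Mcm5 (adjusted p = 0.00172), -1.55 for Rrm2 (adjusted p = 0.00305) and -0.73 for Stmn1 (adjusted p = 0.00683). It was -1.24 for Cdk1 (adjusted p = 0.0253) and -1.57 for Ccnb1, the main mitotic cyclin (adjusted p = 0.0457). With DESeq2, Mcm5, Rrm2 and Stmn1 did not pass. By the number of DESeq2 calls given below, Cdk1 and Ccnb1 cannot both have passed there. Cdk1 lost the call when WT replicate 2 or Il1a-/- replicate 2 was left out. Ccnb1 lost it when any tumour but Il1a-/- replicate 1 was left out. Stmn1 lost it without Il1a-/- replicate 1. Bub1, a checkpoint kinase, had 8.97 and 6.96 CPM in WT and 0 in both Il1a-/- tumours, so its fold is not given. Cenpa had 64.3 and 69.3 in WT and 97.4 and 78.6 in Il1a-/- tumours (0.33 ± 0.20, adjusted p = 0.287). Mcm6 had 69.8 and 76.0, and 68.9 and 82.4, and Pcna 134 and 118, and 119 and 125, with its copy at 0 and 0.633, and 14.3 and 19.0. Neither passed. In all, 12 of the 43 tested members did not pass.

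In the other lists the same NK-like cells had 15 of 35 further mitotic genes lower, led by Cks1b (-1.83), Spc24 (-2.05) and Smc2 (-1.03), and 0 higher. Of 26 further replication genes 13 were lower, among them Dut (-1.33), Lig1 (-1.47) and Gmnn (-1.55), and Dbf4 was higher (0.76). Of 7 G1 genes, Myc (-2.25, adjusted p = 5.77e-05 in edgeR), Cdk4 (-0.98) and Cdk6 (-0.65) were lower and Ccnd2 (0.51) higher. Of 11 inhibitors and quiescence genes 5 were higher and 0 lower, with the antiproliferative gene Btg1 at 1.07 (adjusted p = 0.000121), Ccng2 at 1.09 and Cdkn1a at 0.87. None of 11 cycle transcription factors passed, and 2 had an unadjusted p under 0.05.

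Depth and gating moved with the NK-like result. Median UMIs per NK-like cell were 3244 and 4101 in WT and 1099 and 2258.5 in Il1a-/- tumours. Restricted to cells with at least 1000 UMIs, 27 of 44 members were called, with a median of -1.385. Free RNA held 537 and 634 mitotic CPM in WT and 424 and 641 in Il1a-/- libraries, so the Il1a-/- NK-like sums of 409 and 478 were below it. Trac, a T cell receptor gene, had 3.90 and 7.28 CPM in WT and 21.4 and 17.7 in Il1a-/- NK-like cells. Trdc, the receptor gene of gamma-delta T cells, had 177 and 162 CPM in WT and 157 and 147 in Il1a-/- NK-like cells. Trdc had a UMI in 42.7% and 42.7% of WT cells, and in 16.7% and 26.1% of Il1a-/- cells. Trbc2, another T cell receptor gene, had 237 and 251 CPM in WT and 280 and 208 in Il1a-/- NK-like cells. The NK receptor Ncr1, itself a gate marker, had 1009 and 858, and 1157 and 896. Eomes, a transcription factor of NK cells that the gate did not use, had 474 and 407 CPM in WT and 335 and 331 in Il1a-/- NK-like cells, with a UMI in 67.3% and 69.2%, and 28.0% and 44.9%, of cells. Without cells that held a Trac or Trdc UMI, 16 of 33 members were called and the median was -1.696. By the Trdc shares, this removed a larger part of the WT than of the Il1a-/- NK-like cells. The stricter gate called 20 of 42 and DESeq2 7 of 43, with medians of -1.387 and -1.565. Their part in the result was not tested further. Without each tumour in turn 20 to 26 members were called, 20 without Il1a-/- replicate 2.

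The genotype difference itself differed between CD8 T-like and NK-like cells. This comparison was added after the values above were seen. By edgeR's test of the interaction, 25 of 44 members had a more positive Il1a-/- effect in CD8 T-like cells (19 mitotic, 6 S phase) and 0 a more negative one, where 2.33% of all genes were more positive. The median difference of log2 fold changes was 2.16, against 0.05 for all genes, and all 44 differences were positive. It was 3.14 for Pclaf (adjusted p = 4.95e-07), 4.28 for Ube2c (adjusted p = 1.79e-06) and 2.93 for Birc5, the survivin gene (adjusted p = 7e-06). It was 3.12 for Nusap1, 2.34 for Top2a and 2.33 for Mki67. Without Il1a-/- replicate 2, 14 members were called, and with DESeq2 12. Both effects came from the same 4 tumours.

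Conventional CD4 T-like cells had 4 of 35 members lower in Il1a-/- tumours and 0 higher, where 0.709% of all genes were lower. All 4 were mitotic. Ccna2, the cyclin of S phase and early mitosis, had 24.8 and 20.9 CPM in WT and 0 and 2.72 in Il1a-/- tumours (log2 fold change -3.24 ± 0.73, edgeR adjusted p = 0.0341). The kinetochore motor Cenpe (-2.40, adjusted p = 0.0392), the chromosomal passenger Cdca8 (-2.11, adjusted p = 0.044) and Ccnb2 (-2.10, adjusted p = 0.0454) passed too. Ccnb1 had 21.6 and 13.3, and 0 and 1.36 (-3.72 ± 0.94, adjusted p = 0.0522). Mki67 had 76.6 and 143, and 63.0 and 47.5 (-1.13 ± 0.36, adjusted p = 0.122), and Top2a 142 and 147, and 49.0 and 81.5 (-1.002 ± 0.28, adjusted p = 0.0781). S-phase sums overlapped, at 467 and 836 in WT and 609 and 619 in Il1a-/- tumours. Leaving out WT replicate 2 or Il1a-/- replicate 2, the stricter gate and DESeq2 each left no member called. Without WT replicate 1, 12 were called, and without Il1a-/- replicate 1, 8. In Il1a-/- replicate 1, 1 cell held 47.8% of the mitotic UMIs of 107 cells.

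Gamma-delta T-like cells had no planned test. Their mitotic sums were 838 and 1266 CPM in WT and 153 and 918 in Il1a-/- tumours, and 1 cell held 50.2% of the last. These sums overlapped between genotypes. The shares of mitotic cells, given below, did not, though most of their intervals did.

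Of the other classes, 3 were tested between genotypes, and no member passed in them. In mononuclear phagocyte-like cells 0 of 35 tested members passed in edgeR and 0 in DESeq2, while 2 had an unadjusted p under 0.05 in edgeR, and 0.185% of all genes were called. Mki67 had 45.6 and 39.9 CPM in WT and 7.28 and 30.5 in Il1a-/- tumours (-0.76 ± 0.39, adjusted p = 0.444). In fibroblast-like cells 0 of 20 passed in either tool, 1 had an unadjusted p under 0.05, and 0% of all genes were called in edgeR. In conventional dendritic-like cells 0 of 13 passed in either tool, 2 had an unadjusted p under 0.05, and again 0% of all genes were called. Members left untested there had too few UMIs for the filter. Tumour epithelial-like, plasmacytoid dendritic-like, regulatory T-like and gamma-delta T-like cells were not tested between genotypes. The plasmacytoid dendritic-like mitotic sums given above, 53.8 and 62.9 CPM in WT and 117 and 109 in Il1a-/- tumours, did not overlap. These sums rest on few UMIs, 37 and 32 in WT and 22 and 35 in Il1a-/- tumours. In plasmacytoid dendritic-like cells thinned to equal depth, as described below, the mean mitotic UMIs per cell did overlap. The means were 0.052 and 0.129 in WT and 0.116 and 0.153 in Il1a-/- tumours, so no direction is read from the sums. In the test of whether the T/NK-like and mononuclear phagocyte-like effects differ, no member passed (0 of 44 in edgeR and in DESeq2, 8 at an unadjusted p under 0.05 in edgeR, 0.71% of all genes called). The difference was positive for 38 of 44, with a median of 0.60, against 0.05 for all genes. Without WT replicate 2, 3 members passed that test. Myc, outside the members, did differ (-2.87, adjusted p = 0.00867).

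**Figure D3:**
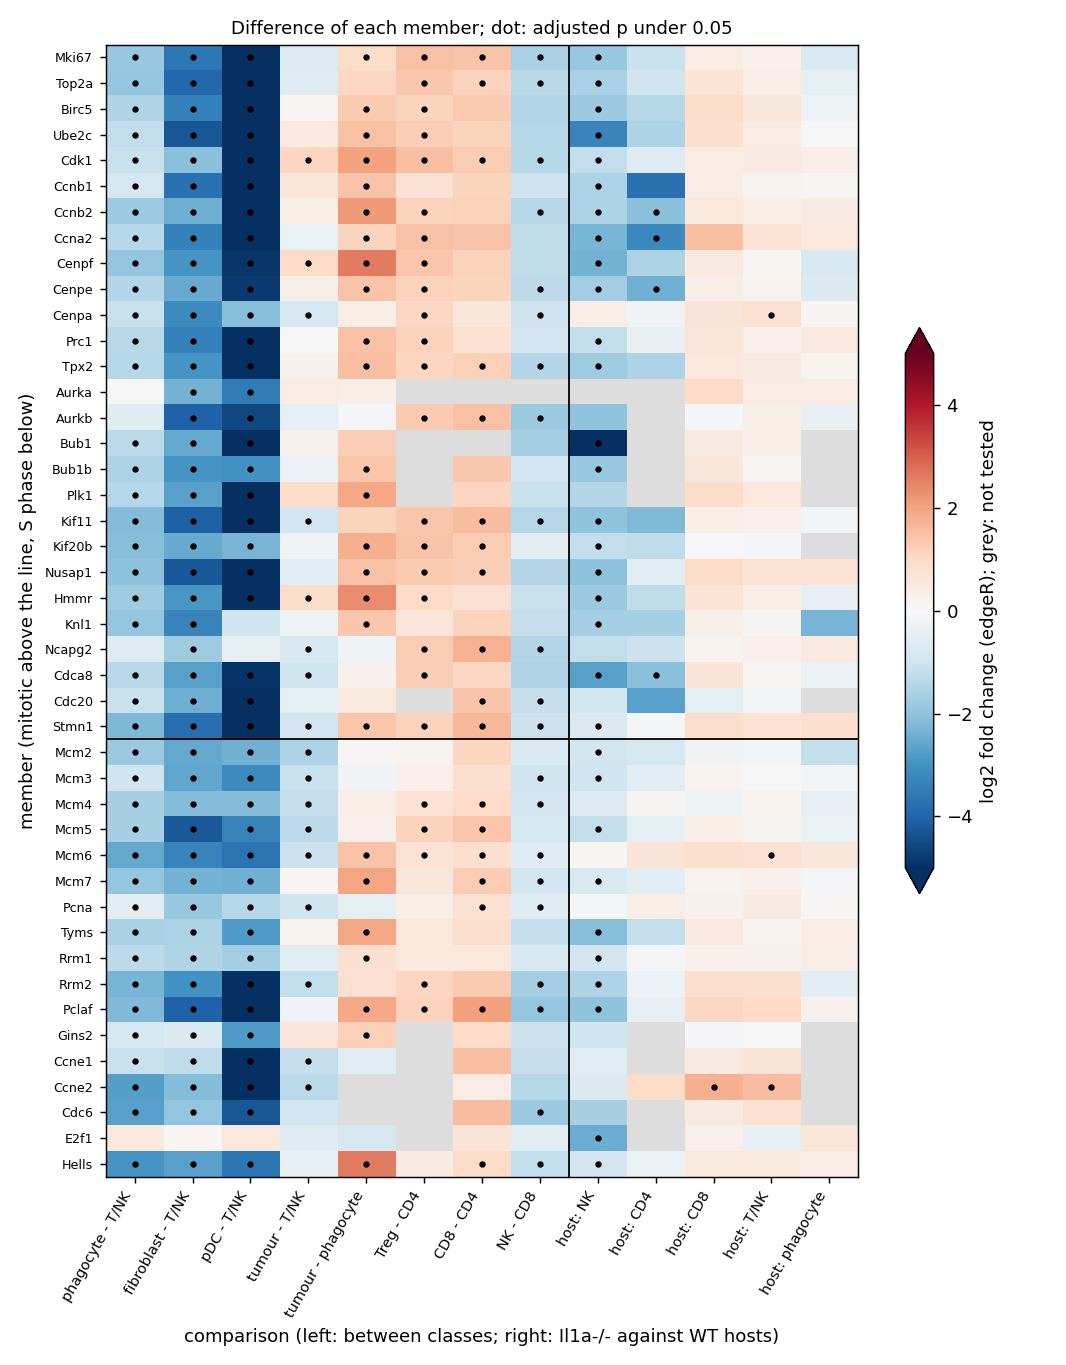
Fitted log2 fold changes of every member tested, by comparison, with called members marked. Folds are drawn no further than -5, and those of members with 0 UMIs in a class are no bounds. NK-like cells show 31 of 43 members called lower in Il1a-/- tumours, against 1 of 44 called higher in CD8 T-like cells.

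Cells were also counted in place of UMIs. Each cell was thinned to 1000 UMIs, and a cell was called mitotic when at least 2 different mitotic members had a UMI. The share of T/NK-like cells so called was 5.40% and 8.68% in WT and 9.75% and 12.1% in Il1a-/- tumours, a difference of 3.87 percentage points. Without thinning the shares were 13.4% and 21.2%, and 10.505% and 20.5%, and the difference was -1.828 points, so no direction is read from it. In CD8 T-like cells the thinned shares were 10.7% (95% Clopper-Pearson interval 5.85% to 17.7%) and 11.4% (7.73% to 16.1%) in WT and 15.0% (12.4% to 17.8%) and 24.7% (21.6% to 27.9%) in Il1a-/- tumours. The first 3 intervals overlapped and Il1a-/- replicate 2 stood above them. In NK-like cells the shares were 6.32% (4.59% to 8.44%) and 6.09% (4.37% to 8.24%) in WT, and 4.27% (1.97% to 7.94%) and 2.73% (1.19% to 5.31%) in Il1a-/- tumours, of 211 and 293 cells deep enough there. Group means were 6.21% ± 0.157 and 3.50% ± 1.08 (SD, n = 2). The difference was -2.71 points, and all 4 intervals overlapped. Unthinned shares were 13.8% and 18.0%, and 4.03% and 9.24%. Thinning left out 136 of 347 NK-like cells of Il1a-/- replicate 1 and 14, 15 and 21 cells of the others.

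Conventional CD4 T-like cells had 4.25% and 8.62% mitotic cells in WT and 2.74% and 2.77% in Il1a-/- tumours after thinning. Gamma-delta T-like cells had 4.89% and 7.96% in WT tumours. In Il1a-/- tumours they had 1.35% and 1.60%, or 1 of 74 and 3 of 187 cells. These gamma-delta shares did not overlap between genotypes and were not tested. Their 95% intervals were 2.76% to 7.93% and 5.43% to 11.2% in WT, and 0.034% to 7.30% and 0.33% to 4.62% in Il1a-/- tumours. Only the intervals of WT replicate 2 and Il1a-/- replicate 2 stood apart. Regulatory T-like cells had 6.67% and 17.4% in WT tumours, and 4 of 14 and 7 of 54 cells in Il1a-/- tumours. Each share was above the conventional CD4 T-like share of the same tumour, but the 6.67% lay below the 8.62% of WT replicate 2. Tumour epithelial-like cells had 15.3% and 11.2% in WT tumours, and 3 of 25 cells in Il1a-/- replicate 1. Mononuclear phagocyte-like cells had 2.08% to 3.24% over the 4 tumours, with overlapping intervals. The plasmacytoid dendritic-like share was 0% in all tumours, with upper limits, given above, that reach the NK-like shares of Il1a-/- tumours. Their median depths before thinning were 6114 and 7250 UMIs in WT and 2577 and 5401 in Il1a-/- tumours, above those of NK-like cells, so free RNA in NK-like cells cannot be read from them. Among the thinned mitotic NK-like cells 24 of 42 and 22 of 39 also had at least 2 S-phase members in WT, and 1 of 9 and 1 of 8 in Il1a-/- tumours. All intervals and limits cover counting error only.

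**Figure D4:**
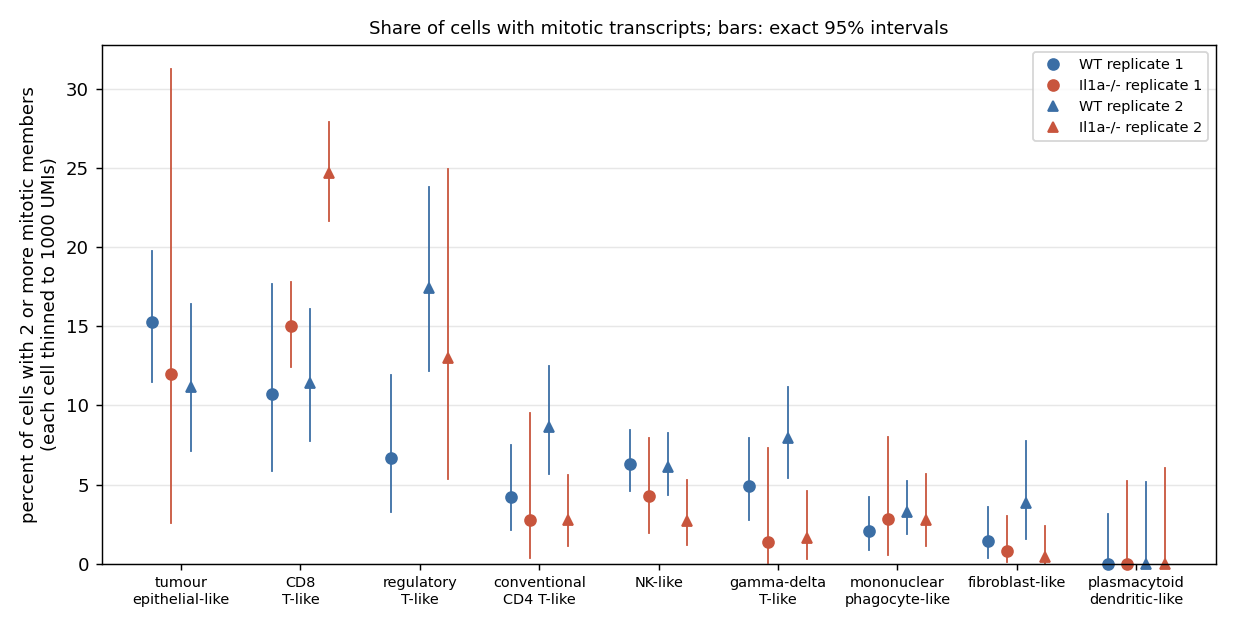
Share of cells with at least 2 mitotic members after thinning to 1000 UMIs (percent), by class and tumour, with 95% Clopper-Pearson intervals. CD8 T-like cells of Il1a-/- replicate 2 reach 24.7%, and NK-like cells of Il1a-/- tumours lie at 4.27% and 2.73%, below 6.32% and 6.09% in WT.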

How the data were processed

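Single-cell RNA of 4 tumours (10x 3' chemistry, 1 sample each) was counted by the authors with Cell Ranger 3.1.0 against mm10, in features named for a combined human and mouse reference, per the file headers and the submitters' processing notes. The deposited values are raw UMI counts of 6794880 barcodes per sample, with no filter or normalization in the deposited matrices. The use of strand and other settings are not given in the sources used here.

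Barcodes with 500 UMIs or more, 250 detected genes or more and a mitochondrial part of up to 20% were called cells. Likely doublets (scanpy 1.11.5, Scrublet, 0.8% per 1000 cells) were removed, 83 to 128 per sample. A cell joined a class with at least 3 marker UMIs beyond 20% free RNA (Poisson p under 0.05) and a score at least 2 times the next class. The markers excluded cell cycle genes; the scoring rule was set after the data were seen. UMIs were summed per sample and class. Sums were tested with edgeR 4.0.16 (R 4.3.3, filterByExpr, TMM, quasi-likelihood, Benjamini-Hochberg over all genes tested, threshold 0.05), with at least 20 cells per sample, and with sample as a block between classes. Scripts were tested on simulated data. ± gives the standard error of a log2 fold change unless SD is named. Intervals and limits (3 counts where 0 were seen) cover counting error only.

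The members and lists were chosen with earlier results of these data known. Named were a core set (Mki67, Top2a, Ccnb1, Cdk1, Stmn1, Mcm5, Pcna, Rrm2, Ccne1), the 6 called members with the smallest p in each direction, all called members where these were 10 or fewer, and the 3 smallest of each other list; further members named beside them were chosen after their values were seen. Alternatives were DESeq2 1.42.0, no filter, cells of at least 1000 UMIs, at most 10% mitochondrial UMIs, a stricter gate (6 marker UMIs, 4 times), doublets kept, the replicate number as a block and each tumour left out. Removing NK-like cells with Trac or Trdc UMIs, the interaction of CD8 T-like and NK-like cells, and shares with a tumour left out were added after the data were seen.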

Additional observations from a re-analysis of the deposited data

Results flagged for a closer look

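The Il1a-/- effect differed between CD8 T-like and NK-like cells of the same tumours by a test of the interaction itself (edgeR, Benjamini-Hochberg), chosen after the separate effects were seen. It was called for 25 of 44 members. The difference of log2 fold changes was 3.14 for Pclaf, 4.28 for Ube2c, 2.93 for Birc5, 3.12 for Nusap1, 2.34 for Top2a and 2.33 for Mki67. The Il1a-/- effect on Myc, outside the 44 members, differed between T/NK-like and mononuclear phagocyte-like cells by -2.87.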

How the results depend on the processing

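Of the recomputed counts of members called, 130 stayed within 1.5 times the reported count and 48 did not; the cause was not tested. For the host effect, T/NK-like cells (3 reported) had 10 without the filter, 5 with cells of at least 1000 UMIs and 9 with the stricter gate. CD8 T-like cells (1) had 9 without the filter, 0 with DESeq2, 2 with at least 1000 UMIs and 0 with the stricter gate. Conventional CD4 T-like cells (4) had 12 without the filter, 0 with DESeq2 or the stricter gate and 2 with doublets kept. NK-like cells (31) had 7 with DESeq2, 20 with the stricter gate and 16 without Trac or Trdc cells. Between classes, DESeq2 called 16 for tumour epithelial-like against mononuclear phagocyte-like cells (25) and 12 for regulatory against conventional CD4 T-like cells (25). With no filter, conventional dendritic-like against mononuclear phagocyte-like cells (1) had 3, CD8 against conventional CD4 T-like cells (18) had 36, and NK-like against CD8 T-like cells (21) had 41, or 37 without Trac or Trdc cells. The T/NK-like and mononuclear phagocyte-like interaction (0) had 1 without the filter, and the CD8 T-like and NK-like interaction (25) had 12 with DESeq2.

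With each tumour left out in turn, the host effect was called for 0 to 11 members in T/NK-like, 0 to 7 in CD8 T-like, 0 to 12 in conventional CD4 T-like, 20 to 26 in NK-like and 0 to 1 in conventional dendritic-like cells. Where this left 1 tumour in a group, it was assumed to vary like the others. Between classes the ranges were 0 to 4 for conventional dendritic-like against mononuclear phagocyte-like, 6 to 26 for regulatory and 7 to 29 for CD8 against conventional CD4 T-like, and 8 to 28 for NK-like against CD8 T-like cells. They were 0 to 3 for the T/NK-like and mononuclear phagocyte-like interaction and 14 to 31 for the CD8 T-like and NK-like interaction. Uncalled log2 fold changes turned direction for Mki67 in T/NK-like cells without WT replicate 1 (-0.18) or Il1a-/- replicate 2 (-0.20), with a range of -0.20 to 0.83 over the tumours left out. Without Il1a-/- replicate 2 they also turned for Top2a in T/NK-like cells (-0.0605, range to 0.602) and Mki67 in CD8 T-like cells (-0.072, range to 0.673).

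The difference in mitotic share turned to -1.83 points in T/NK-like cells without thinning. In conventional CD4 T-like cells it was -1.07 thinned to 500 UMIs and -13.9 without thinning. In NK-like cells it was -9.29 without thinning and -1.89 at 10% mitochondrial UMIs. Leaving out tumours gave 2.24 to 5.51 points in T/NK-like, 3.90 to 13.6 in CD8 T-like, -5.87 to -1.49 in conventional CD4 T-like and -3.47 to -1.94 in NK-like cells.

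The labels do not say that a replicate number marks a shared day. Deviations of same-numbered tumours correlated at 0.17 in T/NK-like, 0.39 in fibroblast-like and 0.05 in NK-like cells. The correlation was 0.037 in conventional CD4 T-like, -0.009 in mononuclear phagocyte-like and -0.00066 in CD8 T-like cells. With the replicate number as a block, 9 members were called in T/NK-like, 8 in CD8 T-like, 10 in conventional CD4 T-like and 33 in NK-like cells, and 0 in mononuclear phagocyte-like, fibroblast-like and conventional dendritic-like cells. Not run, for want of cells or samples, were both conventional dendritic-like comparisons with the stricter gate, and both tumour comparisons at 10% mitochondrial UMIs or with a tumour left out. Depth limits Il1a-/- replicate 1 most.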
